A study of Mus musculus with 6 samples.

Results

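The Fc receptor genes described here are 7 mouse genes for chains of the receptors that bind IgG or IgE: the activating IgG receptors Fcgr1, Fcgr3 and Fcgr4, their signalling chain Fcer1g, the inhibitory IgG receptor Fcgr2b, the IgE-binding chain Fcer1a and the neonatal Fc receptor heavy chain Fcgrt. They were chosen by name, as the Fc gamma and Fc epsilon receptor genes and Fcgrt. No cut on their values was applied, but earlier results of these data were known when they were chosen. All 7 were among the 12968 genes tested, and 10 of the 41174 probes on the array named them. Fcgr2b had 3 probes, Fcgr3 had 2 and each other gene had 1.

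Lung RNA was measured on 1-colour Agilent arrays from 3 groups of C57BL/6 mice, with 2 arrays in each. The hCD2-T-bet tg/tg mice are homozygous for a T-bet transgene, the hCD2-T-bet tg/wt mice are heterozygous for it, and WT mice do not carry it. The series concerns pulmonary alveolar proteinosis, a filling of the air spaces with surfactant, in mice that overexpress T-bet in T cells. Age, sex, and whether the 2 arrays of a group came from separate animals are not given in the sources used here, so each p-value measures only the spread between arrays, which may be technical. The transgene is described as acting in T cells, whereas the RNA came from whole lung.

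Fc receptors read antibody bound to its target. In the mouse, FcγRI, FcγRIII and FcγRIV, encoded by Fcgr1, Fcgr3 and Fcgr4, have no complete signalling motif of their own and pair with the FcRγ chain, encoded by Fcer1g, whose ITAM motif recruits the kinase Syk. FcγRIIB, encoded by Fcgr2b, carries an inhibitory ITIM motif in its own tail, which recruits the phosphatase SHIP1. Macrophages, monocytes and neutrophils carry several of these receptors at once, mast cells and basophils carry the high-affinity IgE receptor, and FcRn, the product of Fcgrt, takes IgG and albumin out of the degradation pathway in endothelium, epithelium and macrophages.

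Levels are given as log2 of the processed signal minus the array's 75th percentile, so that 0 is the 75th percentile of that array's probes. They are compared between groups for 1 probe, not between probes. The summed levels of marker lists given below add different probes on the linear scale, so the brightest marker weighs most, and each sum is given with and without it. The 75th percentile lay between 794 and 1204 signal units. On each array 62.0% to 66.8% of the probes were bright enough to count as well above background. Correlations over the genes tested were 0.996 to 0.997 within a group, 0.921 to 0.933 between tg/tg arrays and the others, and 0.990 to 0.991 between tg/wt and WT arrays. Tbx21, which encodes T-bet, stood at 3.25 and 3.26 in tg/tg lungs and 1.30 and 1.34 in tg/wt lungs, against -0.70 and -0.71 in WT lungs. Its order followed the genotypes in the labels. All 9 endothelial and all 9 epithelial markers were well above background on all 6 arrays. The tg/tg and WT arrays shared a slide, and both tg/wt arrays lay on the other slide, so slide and the tg/wt group cannot be told apart.

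Against WT lungs, tg/tg lungs had higher levels of the 3 activating IgG receptors, of their signalling chain and of the inhibitory IgG receptor, by 7.77-fold to 25.2-fold. Fcgrt was lower in tg/tg lungs, by 1.45-fold, and Fcer1a did not pass the test. Thus 5 of the 7 genes were called higher and 1 lower by limma at an adjusted p of 0.05, in a comparison that called 33.8% of all genes higher and 40.8% lower, 74.7% in either direction. The median log2 difference was 3.38 over the 7 genes and -0.05 over all genes tested. The tg/tg and WT arrays did not overlap for any of the 7 genes, 6 of them higher and 1 lower in tg/tg, as held for 87.9% of all genes, 40.2% higher and 47.7% lower. All 7 genes were well above background on all 6 arrays, and none was saturated.

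Fcgr1 encodes FcγRI, the high-affinity IgG receptor. It stood at 4.93 and 4.94 in tg/tg lungs and at 1.09 and 1.06 in tg/wt lungs, against 0.48 and 0.43 in WT lungs. The groups did not overlap, and each pair of arrays lay close together. The processed signals behind these levels were 24175 and 30806 units in tg/tg lungs, against 1318 and 1298 units in WT lungs. Between tg/tg and WT the log2 difference was 4.48 (SE 0.0359, limma adjusted p = 6.38e-07), a 22.4-fold higher level, which ranked 79 from the top among the 12968 genes.

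Fcgr4, which encodes the IgG2a/c- and IgG2b-binding FcγRIV, stood at 3.23 and 3.21 in tg/tg lungs and at -0.93 and -0.88 in tg/wt lungs, against -1.43 on each WT array. The separation of tg/tg from the other arrays was again far wider than the spread within any pair. The tg/tg to WT difference was 4.66 (SE 0.0350, limma adjusted p = 6.38e-07), or 25.2-fold, the largest among the 7 genes.

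Fcgr3 encodes the low-affinity FcγRIII. Its level was 4.56 on both tg/tg arrays and 1.38 and 1.39 on the tg/wt arrays, against 1.19 and 1.17 on the WT arrays. The tg/wt and WT pairs did not overlap but lay near each other. The tg/tg to WT difference was 3.38 (SE 0.0316, limma adjusted p = 6.38e-07), or 10.4-fold. A second Fcgr3 probe, with 2.71 and 2.33 in tg/tg lungs against -1.24 and -1.17 in WT lungs, gave a difference of 3.72.

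Fcer1g encodes the FcRγ chain that the activating receptors share. It stood at 4.69 and 4.63 in tg/tg lungs and at 2.002 and 2.12 in tg/wt lungs, against 1.73 and 1.68 in WT lungs. As for the receptors, both tg/tg arrays were the high ones and no groups overlapped. The tg/tg to WT difference was 2.96 (SE 0.0547, limma adjusted p = 2.50e-06), or 7.77-fold, the smallest among the 5 genes that rose.

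**Figure D1:**
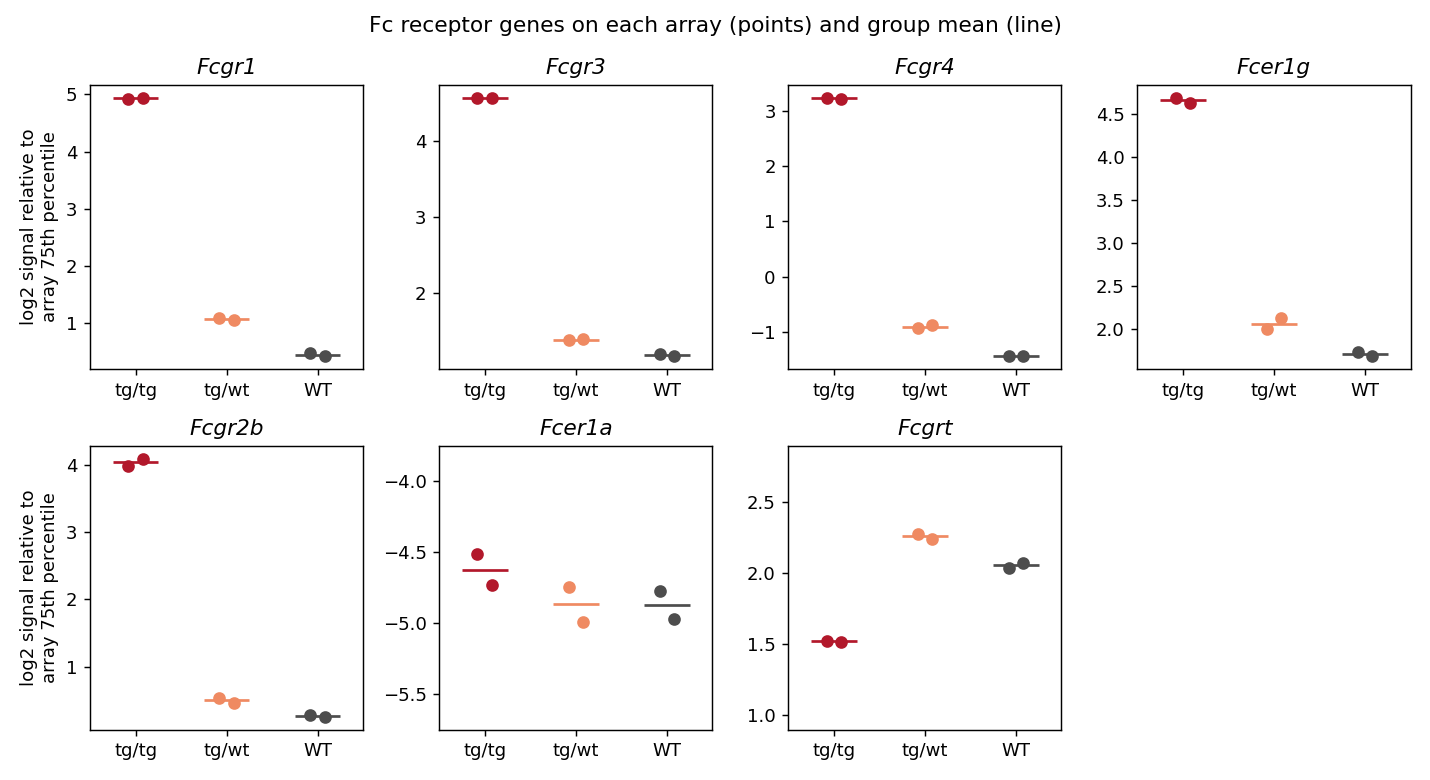
Log2 signal relative to the array's 75th percentile (y axis, each panel with its own range) for the 7 Fc receptor genes on tg/tg, tg/wt and WT arrays (x axis). Points are arrays and lines are the means of the 2 arrays; in 5 panels the tg/tg points stand far above the rest, in the Fcgrt panel they stand lowest, and the Fcer1a points lie close together.

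Fcgr2b, the inhibitory receptor, stood at 3.995 and 4.10 in tg/tg lungs and at 0.53 and 0.46 in tg/wt lungs, against 0.27 and 0.25 in WT lungs. The tg/tg arrays were again the high ones, and the groups did not overlap. The tg/tg to WT difference was 3.79 (SE 0.0503, limma adjusted p = 1.18e-06), or 13.8-fold. This probe was printed 10 times on each array, with an SD over the spots of 0.0278 to 0.0832. Its spots ranged over 3.95 to 4.04 and 3.98 to 4.15 on the tg/tg arrays and 0.38 to 0.63 and 0.28 to 0.55 on the tg/wt arrays, against 0.11 to 0.36 and 0.08 to 0.33 on the WT arrays. The spots of tg/tg arrays lay apart from all others, while those of one tg/wt array overlapped those of the WT arrays. The other 2 Fcgr2b probes gave tg/tg to WT differences of 3.86 and 4.27. The extracellular domains encoded by Fcgr2b and Fcgr3 are closely similar, and whether a probe of either gene also binds the other transcript was not tested.

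**Figure D2:**
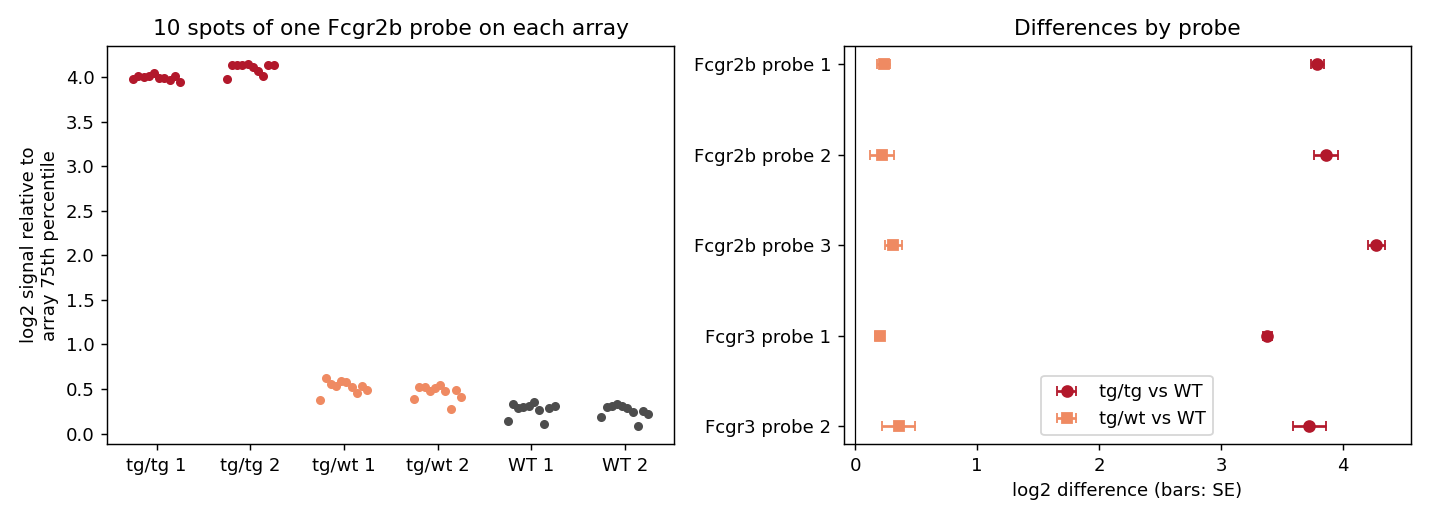
Left, log2 signal (y axis) of the 10 spots of one Fcgr2b probe on each array (x axis), 1 point per spot; right, log2 differences (x axis, bars are SE) of tg/tg vs WT (circles) and tg/wt vs WT (squares) for the 3 Fcgr2b and 2 Fcgr3 probes. All 5 probes put tg/tg at least 3.38 above WT, and their tg/wt differences lie between 0.20 and 0.36.

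Fcer1a encodes the IgE-binding chain of the high-affinity IgE receptor. Its signals were 34.7 and 37.6 units in tg/tg lungs and 44.9 and 29.2 units in tg/wt lungs, against 34.6 and 30.6 units in WT lungs. On the log2 scale these were -4.51 and -4.74 in tg/tg lungs and -4.75 and -4.99 in tg/wt lungs, against -4.78 and -4.98 in WT lungs. The lower tg/tg array lay barely above the higher array of each other group, and the tg/wt arrays overlapped the WT arrays. The tg/tg to WT difference was 0.25 (SE 0.129, 95% interval -0.09 to 0.59, limma adjusted p = 0.138), and quantile normalization turned it into a call at an adjusted p of 0.0482. The probe for Ms4a2, which encodes the receptor's beta chain, did not rise well above background on any of the 6 arrays. Of the 6 mast cell and basophil markers in the fit, 2 rose and 3 fell in tg/tg lungs, and their summed level was 13.3 to 14.2 times the 75th percentile in tg/tg lungs and 15.7 to 16.6 in tg/wt lungs, against 18.8 to 19.0 in WT lungs. Without Hdc, the brightest marker, the sums were 2.75 to 2.79 in tg/tg lungs and 6.04 to 6.56 in tg/wt lungs, against 5.38 to 5.54 in WT lungs. Kit made up most of these remaining sums, at 0.88 and 0.86 on the log2 scale in tg/tg lungs against 2.21 and 2.25 in WT lungs. Hdc, Kit and Il1rl1 were the markers that fell, while Cma1 rose by 0.80 and Mcpt4 by 0.72. In the same comparison 33.8% of all genes rose and 40.8% fell. Mcpt8, Tpsb2 and Cd200r3 of that list likewise stayed near background on all 6 arrays, and the part of these cells in the Fcer1a values was not tested.

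Fcgrt was the one gene of the 7 that was lower in tg/tg lungs. It stood at 1.52 on both tg/tg arrays and at 2.28 and 2.24 on the tg/wt arrays, against 2.04 and 2.07 on the WT arrays. The tg/tg arrays were the lowest and the tg/wt arrays the highest, with no overlap. The tg/tg to WT difference was -0.54 (SE 0.0348, limma adjusted p = 0.000119). This call was lost with normexp background correction on the median signal, at -0.30 with an adjusted p of 0.173. FcRn needs beta-2-microglobulin as its light chain: B2m stood at 7.40 and 7.25 in tg/tg lungs and at 5.93 and 6.06 in tg/wt lungs, against 5.12 and 5.63 in WT lungs. In tg/tg against WT lungs heavy and light chain thus moved in opposite directions, B2m being 3.85-fold higher (SE 0.180 on the log2 scale, limma adjusted p = 0.000435). In tg/wt against WT lungs both log2 differences were positive, 0.20 for Fcgrt and 0.61 for B2m. That of B2m was not called (limma adjusted p = 0.0643).

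Beside the fall of Fcgrt, 9 of 9 endothelial markers were lower in tg/tg than in WT lungs, and their summed level was 144 to 145 times the 75th percentile in tg/tg lungs and 335 to 344 in tg/wt lungs, against 361 in WT lungs. Without Ramp2, the brightest, the sums were 97.9 to 98.7 in tg/tg lungs and 206 to 211 in tg/wt lungs, against 211 to 213 in WT lungs. Of 9 epithelial markers, 3 were higher and 3 lower. Among all genes 33.8% were higher and 40.8% lower in this comparison. Sftpc, the brightest of them, was saturated on all 6 arrays, so only the sum of the other 8 is given: 696 to 761.95 in tg/tg lungs and 689 to 800 in tg/wt lungs, against 801 to 827 in WT lungs. Alveolar macrophage markers were higher for 2 and lower for 8 of 10 in tg/tg lungs, with sums of 96.1 to 96.7 in tg/tg lungs and 106 to 109 in tg/wt lungs, against 113 to 115 in WT lungs. Without Chil3, the brightest, these sums turned round, to 39.0 to 39.3 in tg/tg lungs and 27.8 to 28.4 in tg/wt lungs, against 25.9 to 26.6 in WT lungs. Marco made up most of these tg/tg sums, at 4.89 and 4.88 on the log2 scale in tg/tg lungs against 2.62 and 2.63 in WT lungs. Marco and Itgax were the 2 markers that were higher, so the turn does not describe the 8 that fell. Fabp1 of that list was not well above background in tg/tg lungs. Monocyte and macrophage markers went the other way from Fcgrt, with 10 of 11 higher in tg/tg than in WT lungs and 1 not called. In RNA of whole lung, fewer cells of a type and less RNA per cell cannot be told apart. The part of these cells in the Fcgrt result was not tested.

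**Figure D3:**
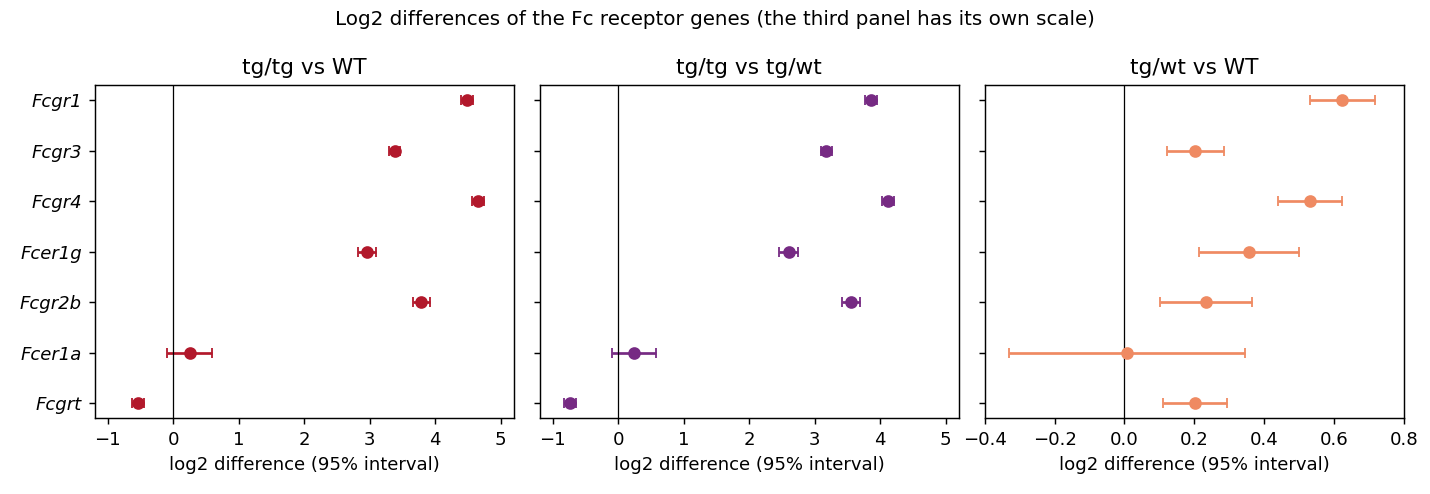
Log2 differences (x axis, bars are 95% intervals) of the 7 Fc receptor genes (y axis) for tg/tg vs WT, tg/tg vs tg/wt and tg/wt vs WT, the last on a narrower scale. Fcgr1, Fcgr2b, Fcgr3, Fcgr4 and Fcer1g lie between 2.60 and 4.66 in both tg/tg comparisons, Fcgrt lies below 0 in both, and all 7 lie between 0.01 and 0.62 in tg/wt vs WT.

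Beside the higher IgG receptor genes, 10 of 11 monocyte and macrophage markers were higher in tg/tg than in WT lungs and 1 was not called, with sums of 535 to 581 in tg/tg lungs and 278 to 355 in tg/wt lungs, against 317 to 322 in WT lungs. Lyz2, which was not called, made up most of these sums, and the other 10 markers summed to 216 to 222 in tg/tg lungs and 29.0 to 29.4 in tg/wt lungs, against 20.4 to 20.8 in WT lungs. All 10 neutrophil markers were higher in tg/tg lungs, with sums of 69.9 to 72.1 in tg/tg lungs and 16.0 to 16.4 in tg/wt lungs, against 56.8 to 58.1 in WT lungs. Without S100a9, the brightest, they were 15.3 to 16.1 in tg/tg lungs and 3.59 to 3.62 in tg/wt lungs, against 8.35 to 8.53 in WT lungs. Of 8 NK cell markers 6 were higher and 1 lower in tg/tg lungs, with sums of 4.34 to 4.48 in tg/tg lungs and 3.97 to 3.98 in tg/wt lungs, against 2.24 in WT lungs. Without Klrd1, the brightest, these were 2.49 to 2.52 in tg/tg lungs and 2.40 to 2.52 in tg/wt lungs, against 1.37 to 1.40 in WT lungs. B cells, which carry Fcgr2b as their only IgG receptor, had 1 of 8 markers higher and 6 lower in tg/tg lungs, with sums of 4.25 to 4.38 in tg/tg lungs and 10.8 to 11.1 in tg/wt lungs, against 6.16 to 6.27 in WT lungs. Without Cd79b, the brightest, the B cell sums were 1.63 to 1.73 in tg/tg lungs and 4.26 to 4.30 in tg/wt lungs, against 2.23 to 2.29 in WT lungs. For these counts, the shares over all genes were 33.8% higher and 40.8% lower in tg/tg against WT lungs. Cr2 and Blk of the B cell list were not well above background in tg/tg lungs, nor were Camp and Ngp of the neutrophil list in tg/wt lungs. The part of these cells in the receptor results was not tested.

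The 5 genes that rose did so by unequal amounts. The change of each was therefore set against that of Fcgr2b, the inhibitory partner, in a limma contrast chosen with the data in view. In tg/tg against WT lungs, Fcgr4 rose 0.87 more than Fcgr2b on the log2 scale (SE 0.0687, limma adjusted p = 4.20e-05) and Fcgr1 rose 0.70 more (SE 0.0547, limma adjusted p = 4.07e-05). Of all genes 99.2% differed from Fcgr2b by this test, 0.833% above it and 98.4% below it. Fcgr3 rose 0.41 less than Fcgr2b (difference -0.41, limma adjusted p = 0.000983), and Fcer1g rose 0.83 less (difference -0.83, limma adjusted p = 0.000190). The order depended on the probe: with the third Fcgr2b probe the Fcgr1 excess was 0.21 (adjusted p = 0.0738), and with the second Fcgr3 probe the Fcgr3 shortfall was -0.06 (adjusted p = 0.718). Under normexp on the median signal the Fcgr4 excess was 0.35 (adjusted p = 0.148) and the Fcgr3 shortfall was -0.22 (adjusted p = 0.130). The lesser rise of Fcer1g was called under every alternative run. Each of these used the only Fcer1g probe, so its dependence on the probe could not be tested.

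In tg/wt lungs the same receptors were only slightly above WT. Fcgr1 was 1.54-fold higher (log2 0.62, SE 0.0359, limma adjusted p = 0.00107) and Fcgr4 was 1.45-fold higher (log2 0.53, SE 0.0350, limma adjusted p = 0.00137). Fcer1g at 1.28-fold, Fcgr2b at 1.18-fold, and Fcgr3 and Fcgrt at 1.15-fold each were also called higher, with adjusted p-values of 0.0132 to 0.0306. Fcer1a differed by 0.01 on the log2 scale (95% interval -0.33 to 0.34), and its tg/wt and WT arrays overlapped. In all, 6 of 7 genes were called higher, and no gene of the 7 had a negative difference, where 13.4% of all genes were called higher and 14.6% lower, 27.9% in either direction. The tg/wt and WT arrays did not overlap for 6 of the 7 genes, all higher in tg/wt, as held for 72.4% of all genes, 34.9% higher and 37.5% lower. The median over the 7 genes was 0.23 on the log2 scale, against -0.005 over all genes.

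Of these 6 calls, those of Fcgr1 and Fcgr4 were lost under a single alternative, normexp on the median signal. There the Fcgr1 difference was 0.72 (adjusted p = 0.154), no smaller, and the Fcgr4 difference was 0.16 (adjusted p = 0.533). The calls of Fcer1g, Fcgr2b, Fcgr3 and Fcgrt were lost under that and other alternatives. Leaving out tg/wt array 1 left 3 calls, and leaving out tg/wt array 2, WT array 1 or WT array 2 left 2 calls each. Between the 2 groups 8 of 11 monocyte and macrophage markers were higher and 1 lower in tg/wt, and all 10 neutrophil markers were lower in tg/wt. Among all genes 13.4% were called higher and 14.6% lower in tg/wt than in WT lungs. All 8 B cell markers, 6 of 8 NK cell markers and 4 of 5 T cell markers were higher in tg/wt. The part of these cells in the small differences, that of Fcgr2b included, was not tested. Set against Fcgr2b, the tg/wt rise was larger by 0.39 for Fcgr1 (limma adjusted p = 0.00518) and by 0.30 for Fcgr4 (adjusted p = 0.0174), where 56.7% of all genes differed from Fcgr2b, 4.35% above and 52.4% below it. With the second Fcgr2b probe these differences were 0.41 for Fcgr1 (adjusted p = 0.0503) and 0.31 for Fcgr4 (adjusted p = 0.134), as large but no longer called.

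Between the transgenic groups, tg/tg lungs exceeded tg/wt lungs by 17.4-fold for Fcgr4, 14.5-fold for Fcgr1, 11.7-fold for Fcgr2b, 9.04-fold for Fcgr3 and 6.07-fold for Fcer1g. Fcgrt was 1.67-fold lower (log2 -0.74, limma adjusted p = 4.24e-05), and Fcer1a differed by 0.24 (95% interval -0.09 to 0.58, limma adjusted p = 0.147), a call under quantile normalization at 0.0241. With 5 genes called higher and 1 lower, the background was 34.0% of all genes higher and 40.2% lower, 74.2% in either direction. The arrays of the 2 groups did not overlap for any of the 7 genes, as for 87.5% of all genes, 40.1% higher and 47.4% lower. Set against Fcgr2b, this rise was larger by 0.31 for Fcgr1 and 0.57 for Fcgr4 and differed by -0.38 for Fcgr3 and -0.95 for Fcer1g, all past the limma threshold, as were 99.4% of all genes, 0.810% above and 98.6% below. With the third Fcgr2b probe the Fcgr1 value was -0.099 (adjusted p = 0.372) and the Fcgr4 value 0.17 (adjusted p = 0.136), and with the second Fcgr3 probe the Fcgr3 value was -0.19 (adjusted p = 0.310). The step between tg/wt and tg/tg was larger than the step between WT and tg/wt by 3.59 on the log2 scale for Fcgr4, 3.32 for Fcgr2b, 3.23 for Fcgr1, 2.97 for Fcgr3 and 2.25 for Fcer1g. For Fcgrt the difference of the steps was -0.94 (limma adjusted p = 0.000276), and for Fcer1a it was 0.24 (adjusted p = 0.403). This contrast called 5 of the 7 genes higher and 1 lower, against 27.9% and 32.1% of all genes, 60.0% in either direction. For Tbx21 itself, tg/tg lungs exceeded tg/wt lungs by 1.94 and tg/wt lungs exceeded WT lungs by 2.02.

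**Figure D4:**
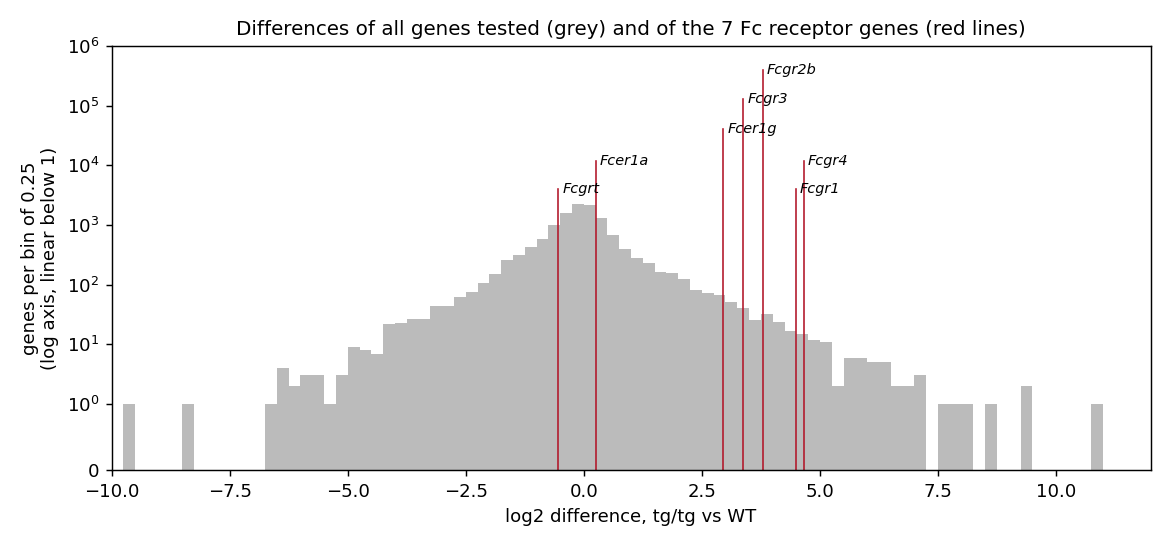
Number of genes (y axis, log scale, linear below 1) by log2 difference between tg/tg and WT lungs (x axis, bins of 0.25) for all 12968 genes tested, with a red line at each Fc receptor gene; line heights only separate the names. Fcgr1, Fcgr2b, Fcgr3, Fcgr4 and Fcer1g lie in the right tail, and Fcgrt and Fcer1a lie within the central mass.

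Promoter sequences of all 7 genes were found in RefSeq (GRCm38.p6), as windows of 300 bases around each annotated start. They were searched on both strands for an ISRE core bound by interferon regulatory factors (GAAA, 2 bases of any kind, GAAA, in 3.44% of 32851 promoters) and the PU.1 core GAGGAA (in 28.3%). The 3 activating receptor genes are shown because they rose in tg/tg lungs and each holds at least 1 match, in capitals; TTCCTC is the PU.1 core read on the other strand. The first lies at chr3:96293920-96294219 on the minus strand, the second at chr1:171018676-171018975 on the plus strand and the third at chr1:171059354-171059653 on the minus strand.
Fcgr1: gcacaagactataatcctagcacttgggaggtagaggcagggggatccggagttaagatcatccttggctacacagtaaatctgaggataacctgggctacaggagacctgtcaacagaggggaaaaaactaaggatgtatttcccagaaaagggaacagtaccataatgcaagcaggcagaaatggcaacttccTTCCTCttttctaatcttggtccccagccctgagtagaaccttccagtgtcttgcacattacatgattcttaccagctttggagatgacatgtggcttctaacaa
Fcgr4: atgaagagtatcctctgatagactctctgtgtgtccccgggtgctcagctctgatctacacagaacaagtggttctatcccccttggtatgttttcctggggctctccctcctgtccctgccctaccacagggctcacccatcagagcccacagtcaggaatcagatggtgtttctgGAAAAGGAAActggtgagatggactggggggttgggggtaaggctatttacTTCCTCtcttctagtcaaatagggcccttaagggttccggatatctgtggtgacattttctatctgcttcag
Fcgr3: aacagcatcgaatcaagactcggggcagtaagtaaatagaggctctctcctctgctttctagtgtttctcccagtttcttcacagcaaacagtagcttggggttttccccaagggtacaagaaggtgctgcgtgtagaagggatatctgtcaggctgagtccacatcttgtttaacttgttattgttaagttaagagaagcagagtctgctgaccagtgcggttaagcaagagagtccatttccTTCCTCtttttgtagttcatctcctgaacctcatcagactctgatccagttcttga
In Fcgr1 the PU.1 core lies from -55 to -50, counted from the annotated start. The Fcgr4 window holds the ISRE letters from -73 to -64 and the PU.1 core from -22 to -17, and the Fcgr3 window shown holds the PU.1 core from -6 to -1. Counted from a second annotated Fcgr3 start, the same core lies from -15 to -10. No matches overlapped. Fcer1a holds GAGGAA from -216 to -211, and neither motif occurs in the windows of Fcgr2b, Fcer1g or Fcgrt. A match describes these letters and shows neither a bound site nor a cause.

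Transcription factors and cytokine pathway genes formed a list of 13 regulators of Fc receptor genes. In tg/tg against WT lungs 10 were higher and 3 lower, with a median of 0.80 on the log2 scale. Spi1, which encodes PU.1, was 5.77-fold higher, Il10ra, a chain of the IL-10 receptor, 4.51-fold, and Ifng, which encodes interferon gamma, 95.1-fold. The transcription factor gene Gata2 fell by 1.19 on the log2 scale, and which cells this fall came from was not tested. In tg/wt lungs 6 of the 13 were higher and 2 lower than in WT lungs. Of all genes tested, 33.8% were called higher and 40.8% lower in tg/tg against WT lungs. In tg/wt against WT lungs these shares were 13.4% and 14.6%. The counts of the lists that follow are to be read beside the same shares.

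Chains that work with the FcRγ chain or like it were listed next. Of 6 light-chain and ITAM adaptor genes, 4 were higher and 1 lower in tg/tg than in WT lungs, with a median of 1.97. Hcst, which encodes DAP10, was 6.21-fold higher, Tyrobp, which encodes the ITAM adaptor DAP12, 5.12-fold, and Cd247, the T cell receptor zeta chain, 4.01-fold, while Cd79b of the B cell receptor fell by 0.59 on the log2 scale. Tyrobp stood at 4.87 and 4.95 in tg/tg lungs and at 2.49 on both tg/wt arrays, against 2.54 and 2.56 in WT lungs, and it was not called in tg/wt lungs (adjusted p = 0.284). In tg/wt lungs 3 of the 6 were higher than in WT lungs and 3 were not called.

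A list of 7 receptors tested that signal through the FcRγ chain, or are paired with one that does, had 5 higher and 1 lower in tg/tg than in WT lungs, with a median of 2.65. Clec4e, the glycolipid receptor Mincle, was 55.5-fold higher, Clec4d, its partner MCL, 24.7-fold, Clec4n, the fungal receptor Dectin-2, 22.4-fold, and Pirb, the ITIM-bearing counterpart of the FcRγ-coupled PIR-A, 6.27-fold. Ncr1, an NK cell receptor, fell by 0.98, and it was well above background on 1 of the 2 tg/tg arrays. Clec4e did not pass the test in tg/wt lungs, at -0.10 on the log2 scale (adjusted p = 0.129). Only Clec4n was called higher there and only Clec4d lower.

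Of 22 genes of the activating pathway below the FcRγ chain, 20 were higher and 2 lower in tg/tg than in WT lungs, with a median of 1.57. Malt1, the paracaspase of the complex with CARD9 and BCL10, was 9.62-fold higher, the adaptor Lcp2, which encodes SLP-76, 8.18-fold, the exchange factor Vav1 7.05-fold and the adaptor Lat 6.99-fold. Syk, named here for its role after its values were seen, was 3.12-fold higher. Vav3, a relative of Vav1, fell by 0.69. In tg/wt lungs 14 of the 22 were higher than in WT lungs and 8 were not called.

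Genes of the inhibitory side were mostly higher too. Of 12 genes for inhibitory receptors, phosphatases and other inhibitory signalling proteins, 11 were higher and 1 lower in tg/tg than in WT lungs, with a median of 1.41. The ITIM-bearing receptor Lilrb4a was 24.4-fold higher, the phosphatase Ptpn22 7.43-fold, the docking protein Dok2 5.47-fold and Ptpn6, which encodes SHP-1, 3.74-fold. Inpp5d, which encodes SHIP1 and was named for its role after its values were seen, was 1.64-fold higher, while Inppl1, which encodes SHIP2, fell by 0.22. In tg/wt lungs 6 of the 12 were higher than in WT lungs and 6 were not called. Among marker lists, 10 of 11 monocyte and macrophage markers were higher in tg/tg lungs, and 8 were higher and 1 lower in tg/wt lungs. All 10 neutrophil markers were higher in tg/tg but lower in tg/wt lungs. Alveolar macrophage markers were higher for 2 and lower for 8 of 10 in tg/tg lungs. In tg/wt lungs 5 of them were higher and 1 lower. Of 7 dendritic cell markers, 0 were higher and 5 lower in tg/tg lungs, and 5 were higher and 1 lower in tg/wt lungs. All 5 T cell markers were higher in tg/tg than in WT lungs and 4 of 5 were higher in tg/wt than in WT lungs. Their summed level was 17.1 to 17.7 in tg/tg lungs and 3.42 to 3.46 in tg/wt lungs, against 1.74 to 1.83 in WT lungs, and without Cd3d, the brightest, 9.35 to 9.84 in tg/tg lungs and 1.99 to 2.01 in tg/wt lungs, against 0.950 to 0.974 in WT lungs. Cd247, Lat, Lcp2, Vav1 and Ptpn22 are expressed by T cells as well as, for some of them, by myeloid cells, and the part of either in these lists was not tested.

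Receptors for immunoglobulin outside the 7 genes did not share one direction. Of the 8 in the fit, 4 rose and 2 fell in tg/tg lungs against WT lungs, with a median of 0.48. Fcer2a, the low-affinity IgE receptor CD23, was 6.87-fold higher, Pigr, which carries IgA and IgM across epithelium, 2.50-fold, the cytosolic antibody receptor Trim21 2.25-fold and the IgA and IgM receptor Fcamr 1.91-fold. Fcmr, the IgM receptor of lymphocytes, fell by 1.33. In tg/wt lungs 6 of the 8 were higher and 2 lower than in WT lungs. Of all genes, 74.7% were called in either direction in tg/tg against WT lungs, and 27.9% in tg/wt against WT lungs. None of the listed immunoglobulin heavy and light chain genes could be named on the array, so the genes of the ligands were not measured. Of that list, only the joining chain gene Jchain was tested. It stood at 4.55 and 4.46 in tg/tg lungs and at 2.29 and 2.42 in tg/wt lungs, against 3.27 and 3.30 in WT lungs.

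On chromosome 1, Fcgr2b, Fcgr4 and Fcgr3 are adjacent in RefSeq order, with Fcer1g a few genes further on. Of the 15 other genes between and beside them 9 were tested, a set chosen after values were seen. In tg/tg against WT lungs, 1 of the 9 was higher, 4 were lower and 4 were not called, with a median of -0.24. Over all genes 33.8% were higher and 40.8% lower, so these few neighbours were called lower about as often as all genes. The gene that was higher was Adamts4, an extracellular protease, at 3.78 on the log2 scale. Sdhc, a mitochondrial gene between Fcgr3 and Fcer1g, differed by 0.12 (adjusted p = 0.0844). Fcrla, a B cell protein of the Fc receptor-like family, was the lowest at -0.95. Around Fcgr1 on chromosome 3, 1 of 5 tested neighbours was higher and 3 were lower, and around Fcgrt on chromosome 7, 2 of 7 were higher and 3 lower. Around Fcer1a, elsewhere on chromosome 1, 2 of 3 tested neighbours were higher and 1 was not called, with a median of 1.10: Ackr1, an atypical chemokine receptor, differed by 5.21 and the adhesion gene Cadm3 by 1.10.

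**Figure D5:**
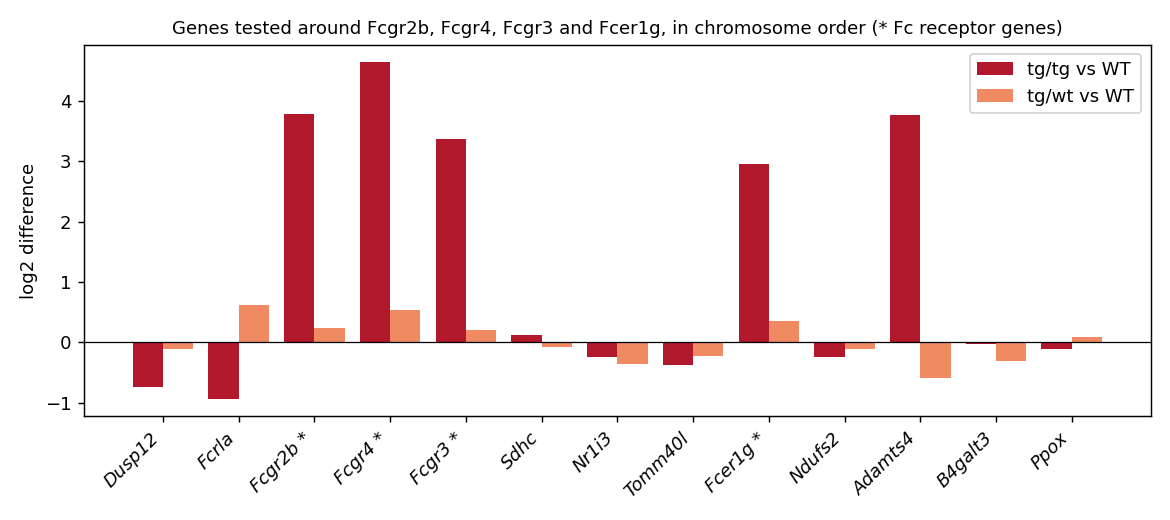
Log2 differences (y axis) of tg/tg vs WT (dark bars) and tg/wt vs WT (light bars) for the tested genes around the chromosome 1 Fc receptor genes, in RefSeq order (x axis, Fc receptor genes starred). The starred genes reach 2.96 to 4.66 in tg/tg vs WT, and among the other 9 only Adamts4, at 3.78, lies in that range.

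The genes most like each Fc receptor gene were found from the root mean square difference of log2 levels over the 6 arrays, each gene centred on its own mean, among the 12967 other genes. For Fcgr1 they were Clec4n at 0.0303, Creg2 at 0.0659 and Fpr2 at 0.111, and for Fcgr4 Slc7a8 at 0.0941, Hk3 at 0.106 and Clec4n at 0.112. Fcgr3 was closest to Nfkbie at 0.0412, Ctsg at 0.0553 and Tnfaip2 at 0.0585, and Fcer1g to Sectm1b at 0.0423, Ikbke at 0.0598 and Kcnn4 at 0.0623. The nearest genes to Fcgr2b were Oas1d at 0.0565, Itgam at 0.0880 and Slc11a1 at 0.102. Fcer1a was nearest to Hps1 at 0.0472, Papss2 at 0.0699 and Keap1 at 0.0742, and Fcgrt to Prss8 at 0.0232, P3h3 at 0.0257 and Hhip at 0.0279. Within the 7 genes the closest pairs were Fcgr1 with Fcgr4 at 0.114, Fcgr2b with Fcgr3 at 0.189 and Fcgr3 with Fcer1g at 0.245, and Fcgr4 with Fcgrt was the most unlike pair at 2.37. The 6 arrays form 3 groups, so these values mostly compare 3 levels.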

How the data were processed

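Lung RNA of 2 tg/tg, 2 tg/wt and 2 WT samples was read on 6 arrays. The deposited scanner intensity values were made by the authors with Agilent Feature Extraction (version 9.5.3.1 per the file headers, 9.1 per the submitters' processing notes), with background subtraction per the file headers. From them, log2 of the processed signal was averaged over the spots of a probe, without control and outlier spots, and reduced by the array's 75th percentile over probes. A probe was tested when well above background on at least 2 of 6 arrays, and the probe with the highest mean stood for its gene. Array accessions were matched to RefSeq GRCm38.p6: 22951 of 41174 probes were named, with 16358 symbols. limma 3.58.1 in R 4.3.3 fitted 1 model of 3 group means over all genes, with Benjamini-Hochberg adjustment, 3 residual degrees of freedom and a threshold of 0.05; the fit was tested on simulated data. An exact permutation test of 2 against 2 arrays cannot go below a two-sided p of 0.333. The deposited series table, also in intensity units, equalled the scanner's background-subtracted signal within a relative tolerance of 1e-04 for 270108 of 270108 values, so it is linear, not scaled and not centred.

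The members and lists were chosen with earlier results of these data known. From each list the text names up to 4 genes with the largest called tg/tg to WT difference, the largest call against the majority, and the partner chains; 1 item withheld from the text is not reported here. Alternatives changed the background correction, scaling, filter, floor, probe rule, variance moderation, arrays fitted, source of values and replicate block. The number of arrays limits the precision. Figures were drawn with matplotlib 3.10.9.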

Additional observations from a re-analysis of the deposited data

Results flagged for a closer look

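Of 76 genes of the members and the pathway lists, 11 moved in opposite directions against WT in tg/tg and in tg/wt lungs, both calls by limma, as did 818 of all 12968 genes tested. Both comparisons share the WT arrays, so each gene is given here by its own tg/tg minus tg/wt difference on the log2 scale, tested in the same fit. Among the Fc receptor genes Fcgrt was the only one, with a difference of -0.74. Its tg/wt to WT call was lost under several alternatives. These included normexp on the median signal (limma adjusted p = 0.214), normexp with high backgrounds capped (0.0542) and the deposited series table (0.0590). Its tg/tg to WT call was lost under normexp on the median signal (limma adjusted p = 0.173). Slide and the tg/wt group cannot be told apart for any gene given here. Among the other receptors for immunoglobulin, the difference was 1.76 for Fcamr, which was well above background on 1 of the 2 tg/wt arrays, 2.34 for Pigr, -2.37 for Fcmr and -1.57 for Fcrla. The joining chain gene Jchain differed by 2.15, the B cell receptor chain Cd79b by -1.34 and the C-type lectin Clec4d by 5.79. The phospholipase gene Plcg1 differed by -0.56, and of the C/EBP factor genes Cebpa differed by -0.45 and Cebpb by 0.67. Groups of 2 arrays are too small for a test of single outlying arrays.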

How the results depend on the processing

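The direction and call of 495 of 537 member values and 232 of 255 values set against Fcgr2b held under the alternatives, and 1868 of 2052 list counts stayed within 1.5 times their value; the cause of each change was not tested unless stated. With normexp on the median signal no Fc receptor gene was lower in tg/tg than in WT lungs (0) or by the difference of the steps (0), and 0 were higher in tg/wt by limma; at an unadjusted p of 0.05 these counts were 0, 1 and 4. That setting called 1779 genes higher and 2342 lower in tg/tg vs WT, 0 and 1 in tg/wt vs WT (685 and 2279 unadjusted), 1437 and 1873 in tg/tg vs tg/wt, and 503 and 615 for the difference of the steps. With every probe on its own, more features were tested, and 9049 were higher and 10039 lower in tg/tg vs WT, 2808 higher in tg/wt vs WT, 8807 and 10046 in tg/tg vs tg/wt, and 6521 and 7599 for the steps; without the filter on dim probes 1208 genes were lower in tg/wt. Leaving out 1 array gave 5 members higher and 1 lower in tg/tg vs WT, in tg/tg vs tg/wt and for the steps, and 2 to 6 higher in tg/wt vs WT. The gene counts then ranged over 3823 to 4321 higher and 4686 to 5183 lower in tg/tg vs WT, 746 to 1648 and 595 to 1824 in tg/wt vs WT, 3999 to 4222 and 4716 to 5080 in tg/tg vs tg/wt, and 2815 to 3523 and 3145 to 4111 for the steps. Fcer1a changed sign in tg/tg vs WT under normexp (-1.32), in tg/wt vs WT under normexp (-1.51), normexp with high backgrounds capped (-0.10), quantile normalization (-0.062), without tg/wt array 1 (-0.12) or WT array 2 (-0.09), and in the steps without tg/wt array 2 (-0.011, against 0.48 without tg/wt array 1). Set against Fcgr2b in tg/wt vs WT, Fcgr3 changed sign under normexp (0.16), capped normexp (0.023), the mean of a gene's probes (0.026), without tg/wt array 1 (0.0092, against -0.070 without tg/wt array 2) and with its second probe (0.12), and Fcgr4 under normexp (-0.10). Fcgr1 did so in tg/tg vs tg/wt with the third Fcgr2b probe (-0.10), 1 of the alternatives by probe that were added after seeing the data. Same-numbered arrays did not deviate together (correlations of -0.05, -0.05 and 0.13), so the numbers do not pair the arrays. With the replicate block, 6 members were higher and 1 lower in tg/tg vs WT, with Fcer1a called at an adjusted p of 0.00619 there, 0.00682 in tg/tg vs tg/wt and 0.0449 in the steps, and 5 were higher in tg/wt, with Fcgr2b at 0.0651. Naming by accession alone equals the naming used and was not run; slide as a block could be fitted for tg/tg vs WT only, as the 4 arrays of 1 slide. Dim probes such as that of Fcer1a, near the background, measure small differences poorly.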
